A study of Mus musculus with 74 samples.

Results

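Chaperones and the proteins of the early secretory pathway were measured in mouse cell lines given TGF-β, as a set of gene families chosen by symbol. A probe belonged to the set if it carried a single gene symbol and that symbol began with the name of a heat shock protein, Dnaj, Pdia, P4h, Sec, Derl, Edem, Tmed, Ssr, Cop, Calr, Canx, Cct, Fkbp or Ppi family. The rule was met by 100 of 8976 probes, which measure 78 of the 5844 genes that have a probe with a single symbol. Of these genes, 58 had 1 probe, 18 had 2 probes and 2 had 3 probes. No measured value entered the rule. It takes in some genes by name alone: Sec14l1, Sec14l2 and Sec14l4 belong to a family of lipid-binding proteins, and Hspb11 is better known as a subunit of the intraflagellar transport complex.

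The series holds 74 cDNA arrays with 2 channels each, from 5 lines at 0, 0.3, 1, 2 and 4 h. The lines are named S2KO, S3KO, U0126, S2WT and S3WT. As background, S2KO and S3KO are Smad2 and Smad3 knockout mouse embryo fibroblasts, S2WT and S3WT are their wild-type counterparts, and U0126 is an inhibitor of the kinase MEK. The labels themselves name no cell type, no genotype beyond these names, no age and no dose. The U0126 arrays are titled S2WT_vs_U0126, which reads as a comparison of S2WT with the inhibitor. Their channel names instead join S2WT to U0126 on both sides and differ by TGF-β alone. The channel names were followed here, so what that ratio compares rests on them. Read so, U0126 is not a line of its own but S2WT cells with the inhibitor in both channels. It is counted as a line below, so a mean over the 5 lines holds S2WT cells under 2 names. Channel 1 held RNA of cells without TGF-β and channel 2 RNA of cells of the same line given TGF-β for the stated time. On the 0 h arrays both channels held RNA without TGF-β. Each line had 3 arrays at each time, except S3KO at 1 h with 2 arrays. At 0.3 h both channel names of the S3KO arrays omit TGF-β, unlike their titles, and the S2WT arrays at 4 h carry a 2 h label in the channel names.

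Proteins bound for the cell surface or for secretion enter the endoplasmic reticulum through the Sec61 channel, fold there with the help of lectin chaperones, disulfide isomerases and prolyl isomerases, and leave in COPII-coated vesicles. Tmed proteins are cargo receptors of that traffic, COPI coats return escaped proteins, and Derl and Edem proteins take misfolded ones out for degradation. In the cytosol and mitochondria, Hsp70 proteins with Dnaj partners, small heat shock proteins and the CCT ring fold newly made and stressed proteins. TGF-β is known for making fibroblasts produce and secrete matrix proteins such as collagen, which pass through this pathway.

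Every value below is a log2 ratio of the channels, centred on the median of its array, so that 0 is the middle probe of that array and not an absence of expression. The ratio was read as channel 2 over channel 1. That direction is not stated in the sources used here and is likely only. Among 8 tested probes of known TGF-β-induced genes, 3 were called higher in the late response described next and none lower. Skil by 0.57 and Snai1 by 0.72 were among those called. Smad7 at 0.22 and Tgif1 at 0.31 and 0.19 were not called. Tgfbi at -0.13 and Col1a1 at -0.044 were below 0 and not called. Member probes were measured on 54 to 74 arrays, 38 of them on every array. The scatter of arrays around their group means had a median SD of 0.43 for members and 0.58 for all probes. Signal intensities were not used here, so how bright each spot was is unknown. Precision is set by the scatter of each probe and by how many arrays there are. The labels do not say whether the 3 arrays of a group come from separate cultures, so the p-values cover array-to-array scatter only, and that scatter may be technical.

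A single array ran against the rest. The ratios of S3KO 1 h replicate 2 correlated at -0.38 with the mean 0 h ratios of the other lines over the probes measured on every array, while all other arrays at 0.3 to 4 h correlated between 0.056 and 0.65. Its direction is therefore not settled, and results that use it were computed also with its sign turned. Turning it changed the sign of 2 of 81 tested members in the late response over all lines and of 8 of 88 from 1 to 4 h, where the median move was 0.038 and the largest 0.37. In S3KO alone it changed the sign of 9 of 87. Turned values stand below for most called probes, those near the threshold and only some of the probes whose direction changed. A small value given without one may therefore have the other sign with that array turned. Among the 0 h arrays, S3KO replicates 1 and 2 correlated at -0.16 and -0.10 with the other lines and S3KO replicate 3 at 0.58; those of the other lines lay between 0.22 and 0.62.

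Probes were tested with limma's moderated test on the 25 group means, with Benjamini-Hochberg adjustment over all probes tested, and are called at an adjusted p under 0.05. The late response is the mean of the 1, 2 and 4 h groups minus 0 h. Averaged over the 5 lines, no member was called: 0 of 81 tested members, with 8 at an unadjusted p under 0.05, 4 higher and 4 lower. Over all probes tested, 1.07% were called in that response, and 10.5% had an unadjusted p under 0.05. The median late response was 0.037 over members and 0.0036 over all probes. In the early response, 0.3 h minus 0 h over the 4 lines other than S3KO, limma called 0 of 91 members and 0% of all probes. An unadjusted p under 0.05 was reached there by 3 members and by 4.33% of all probes. From 1 to 4 h, limma called 3 of 88 members, where 2.54% of all probes were called. That share is close to the background.

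Within single lines, limma called 0 of 96 members in S2KO (6 at an unadjusted p under 0.05), against 0.515% of all probes. In S3KO it called 5 of 87, against 1.53% of all probes. In U0126 it called 0 of 97 (6 at an unadjusted p under 0.05), against 0.0719%. In S2WT it called 1 of 96, against 0.192%, and in S3WT 0 of 95 (7 at an unadjusted p under 0.05), against 0.12%. With the 15 zero-hour arrays of all lines pooled as the baseline, limma called 1 of 90 members in S2KO, where 2.49% of all probes were called. No member was called against the pooled arrays in S3KO (0 of 83, 3 at an unadjusted p under 0.05; 0.0141% of all probes), U0126 (0 of 90, 6; 0.782%), S2WT (0 of 90, 12; 1.27%) or S3WT (0 of 90, 8; 0.146%) by limma. These comparisons share 0 h arrays with each other. Over all probes, the shares at an unadjusted p under 0.05 were 8.22% in S2KO, 6.35% in U0126 and 5.47% in S3WT. Against the pooled arrays those shares were 5.17% in S3KO, 10.6% in U0126, 12.3% in S2WT and 8.41% in S3WT. The members called in single lines are Derl1, Dnajb1 and 5 probes that turn on the S3KO 0 h arrays.

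**Figure D1:**
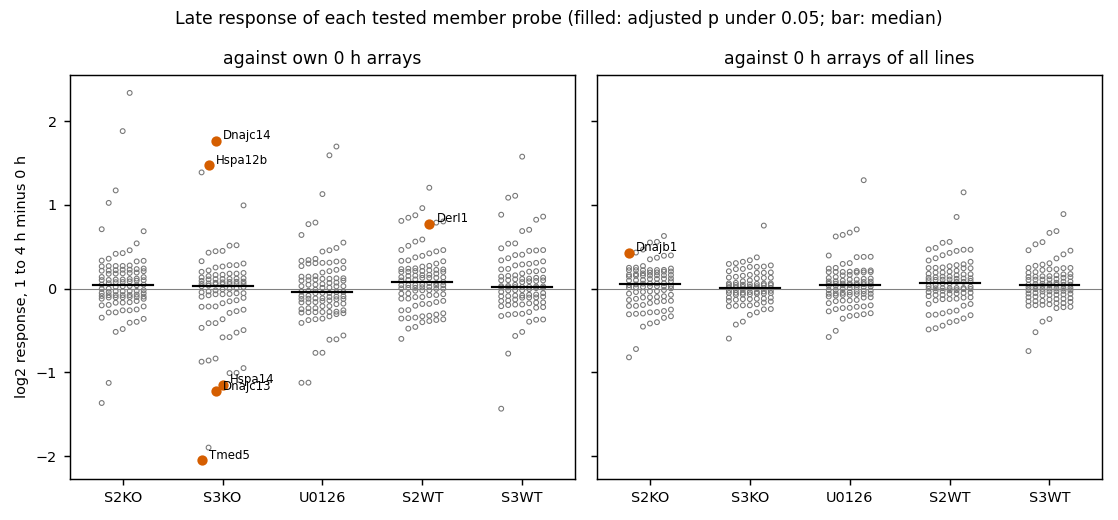
Late response (log2, mean of 1, 2 and 4 h minus 0 h) of each tested member probe in each line, against the line's own 0 h arrays on the left and against the pooled 0 h arrays on the right. Filled points have an adjusted p under 0.05 and bars are medians; the 5 filled S3KO points on the left have no filled counterpart on the right.

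The Sec61 channel supplied the member with the lowest adjusted p in the 1 to 4 h comparison. Sec61a1 encodes the pore-forming subunit. Its probe 4727 read 0.52, 0.37 and 1.10 at 4 h in S2KO, against 0.68, 0.46 and 0.16 at 1 h. In S3KO it read 0.25, 0.18 and 0.64 at 4 h, against -0.21 and 0.46 at 1 h. In U0126 it read 0.46, 0.80 and 0.49 at 4 h, against -1.22, 0.18 and 0.38 at 1 h. The groups separated without overlap in U0126 and not in S2KO or S3KO. In S2WT it read 0.90, 0.52 and 0.96 at 4 h, against 0.040, 0.15 and 0.16 at 1 h. In S3WT it read 0.28, 0.56 and 0.77 at 4 h, against 0.069, 0.20 and 0.40 at 1 h. All 3 S2WT arrays at 4 h lay above those at 1 h, and the S3WT arrays overlapped.

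Over the 5 lines Sec61a1 averaged 0.58 at 4 h and 0.13 at 1 h, and it rose by 0.45 ± 0.12 (SE; adjusted p = 0.0206 by limma). By line the difference was 0.23 ± 0.25 in S2KO, 0.23 ± 0.28 in S3KO, 0.80 ± 0.25 in U0126, 0.68 ± 0.25 in S2WT and 0.31 ± 0.25 in S3WT. Its means over lines were 0.24, 0.28, 0.13, 0.34 and 0.58 at 0, 0.3, 1, 2 and 4 h, so the 1 h mean was the lowest of the 5. The U0126 1 h array at -1.22 is 1 of the 14 behind it: without that array the change was 0.35, the smallest of the 29 fits that each left out an array, and the call stood. It was lost without S2KO 4 h replicate 3 (0.41, adjusted p = 0.0536) and without S3KO 1 h replicate 2 (0.38, adjusted p = 0.119). With the sign of the S3KO array turned it was 0.41 (adjusted p = 0.0409), and the S3KO difference 0.022 in place of 0.23.

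The other parts of the channel did not pass. Sec61b, its small beta subunit, changed by 0.070 ± 0.12 from 1 to 4 h. The gamma subunit Sec61g had differences of 0.23 ± 0.092 (adjusted p = 0.223) and 0.25 ± 0.27 on its 2 probes, and Sec62, which helps small proteins enter, 0.17 ± 0.14. The translocon-associated Ssr1, Ssr3 and Ssr4 had differences of 0.12, 0.082 and 0.34, with adjusted p-values of 0.906, 0.866 and 0.476. Over the late response the same genes were near 0: Sec61a1 0.11 ± 0.093, Sec61b 0.018 ± 0.097 and the Sec61g probe 5156 0.050 ± 0.074.

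No folding factor of the endoplasmic reticulum passed in the common late response or from 1 to 4 h. Calr, the lectin chaperone calreticulin, had a late response of -0.0048 ± 0.28, with a 95% interval of -0.57 to 0.56. Pdia4, a disulfide isomerase, had -0.25 ± 0.22 on the 1 of its 2 probes that could be tested. Ppib, the prolyl isomerase of the collagen-folding complex, was measured more precisely, at 0.064 ± 0.060 (95% interval -0.056 to 0.19). Dnajb11, a co-chaperone of the endoplasmic reticulum with the smallest scatter of all members (residual SD 0.15), had 0.023 and an adjusted p of 0.931. Of the 3 Pdia and P4h probes tested from 1 to 4 h, none was above 0, and their median was -0.24. These values depend on the S3KO array of unsettled direction. In S3KO, P4htm had -0.30, Pdia2 probe 8552 -0.86 and Pdia4 probe 8529 -1.25. With the sign of S3KO 1 h replicate 2 turned they had 1.09, -0.033 and -0.37. The immunophilins Fkbp2, Fkbp7 and Fkbp9 had late responses of 0.060, -0.16 and 0.081, none called. P4htm, a membrane-bound prolyl hydroxylase, had 0.31 (adjusted p = 0.80). The P4h collagen hydroxylases, Hspa5, Hsp90b1, Canx and Pdia6 were not analysed here.

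Promoter letters were read from RefSeq (GRCm38.p6) for 64 of the 78 member genes, as the 250 bases before each annotated start, to show where the endoplasmic reticulum stress element stands in this set. The element was searched on both strands as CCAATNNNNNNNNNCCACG, a CCAAT box joined to CCACG, so it overlaps both shorter motifs. It was found in 2 member genes (3.13%), Calr and Dnajc3, and in 0.13% of 27025 genes of the table. The CCAAT box alone stood in 42.2% of member genes against 37.5% of all, CCACG in 50% against 31.0%, and the heat shock element core GAANNTTC in 15.6% against 7.73%. TGACGTCA, the palindrome bound by factors of the CREB and ATF families, stood in 2 member genes against 1.77% of all genes. The Smad box GTCTAGAC stood in 0 member genes and 0.2% of all genes. Sec61a1, Dnajc11 and Derl1 were among the genes not matched. A match is a description of these letters only.

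The windows of both genes with the element are printed with its CCAAT and CCACG parts in capitals, which in Calr lie on the opposite strand. Dnajb1 follows for its response in S2KO, with its single CCAAT box, also on the opposite strand, in capitals; this window holds no GAANNTTC. The windows lie at chr8:84846932-84847181 (minus strand) for Calr, chr14:118937682-118937931 (plus strand) for Dnajc3 and chr8:83607925-83608174 (plus strand) for the first of the 2 Dnajb1 starts.
Calr: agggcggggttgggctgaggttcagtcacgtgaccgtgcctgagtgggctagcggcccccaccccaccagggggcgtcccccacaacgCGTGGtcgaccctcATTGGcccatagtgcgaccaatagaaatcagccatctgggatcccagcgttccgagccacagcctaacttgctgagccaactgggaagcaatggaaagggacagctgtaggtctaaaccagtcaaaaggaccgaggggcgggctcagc
Dnajc3: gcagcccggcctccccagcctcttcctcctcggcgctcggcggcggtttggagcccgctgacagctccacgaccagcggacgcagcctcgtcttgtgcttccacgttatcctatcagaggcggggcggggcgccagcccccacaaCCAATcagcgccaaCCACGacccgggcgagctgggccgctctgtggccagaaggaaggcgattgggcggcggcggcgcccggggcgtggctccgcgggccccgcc
Dnajb1: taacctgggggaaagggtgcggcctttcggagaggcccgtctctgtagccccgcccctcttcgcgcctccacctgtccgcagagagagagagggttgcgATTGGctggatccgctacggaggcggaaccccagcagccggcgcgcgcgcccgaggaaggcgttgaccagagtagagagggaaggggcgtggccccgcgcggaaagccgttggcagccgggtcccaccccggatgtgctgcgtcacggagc

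Neither gene with the element passed a test. Dnajc3, an inhibitor of the kinase PERK, had a late response of 0.22 ± 0.33 and a change from 1 to 4 h of -0.039 ± 0.38. Calr changed by 0.077 ± 0.33 from 1 to 4 h. Their SEs of 0.33 and 0.28 in the late response compare with 0.060 for Ppib, so responses that Ppib would show could go unseen here.

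Quality control of the endoplasmic reticulum was represented by Derl1, Derl2 and Edem1. Derl1 is a membrane protein of the machinery that draws misfolded proteins back to the cytosol. Its probe 2383 was the only member called in S2WT. The 9 late S2WT arrays read 0.29, 0.20 and 0.12 at 1 h, 0.45, 0.37 and 0.44 at 2 h, and 0.42, 0.60 and 0.77 at 4 h. The 3 S2WT arrays at 0 h read -0.76, -0.23 and -0.12. The late and 0 h arrays of S2WT did not overlap.

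The S2WT late response of Derl1 was 0.78 ± 0.15 (SE; adjusted p = 0.00614 by limma), with means of 0.41 late and -0.37 at 0 h. In the other lines it was -0.041 in S2KO, 0.080 in S3KO, -0.14 in U0126 and -0.082 in S3WT, each ± 0.15. The difference from S2WT was -0.92 ± 0.21 in U0126 (adjusted p = 0.125) and -0.82 ± 0.21 in S2KO (adjusted p = 0.219), so neither passed. Late S2WT arrays were within the range of late S2KO arrays, which ran from -0.16 to 0.80, while the 0 h arrays of S2KO read 0.75, 0.32 and 0.16. Against the pooled 0 h arrays the S2WT response was 0.28 ± 0.095 (adjusted p = 0.145). Without S2WT 0 h replicate 1 it was 0.58 (adjusted p = 0.168), and with ratios as deposited 0.59 (adjusted p = 0.140). With only the S2WT arrays in the fit the same 0.78 had an adjusted p of 0.208, so that call too was lost. In S2WT, leaving out the centring shifted the median of all probes to -0.17, against 0.020 with centring.

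Derl2, a relative of Derl1, had late responses of -0.033 and -0.028 over the 5 lines on its 2 probes. Edem1, which marks misfolded glycoproteins by trimming their sugars, had -0.063 ± 0.14. Derl1 itself had 0.12 ± 0.067 over the 5 lines and 0.25 ± 0.084 from 1 to 4 h (adjusted p = 0.111).

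**Figure D2:**
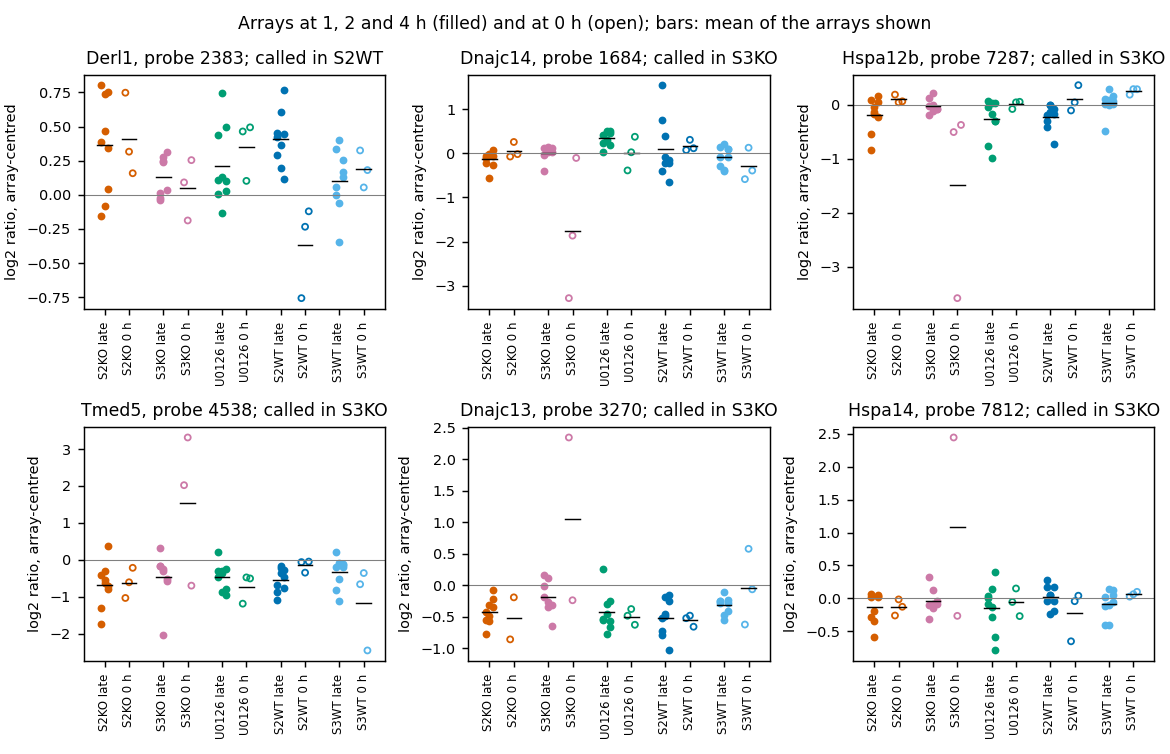
Log2 ratios on each array at 1, 2 and 4 h (filled) beside 0 h (open) in every line, for Derl1 and the 5 probes called in S3KO; bars are means of the arrays shown. In S2WT all 9 late Derl1 arrays sit above the 3 at 0 h, while in S3KO the 5 calls go with 0 h arrays that reach -3.28, -3.58, 3.31, 2.35 and 2.45.

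Coat and cargo-receptor genes of vesicle traffic lay mostly above 0 from 1 to 4 h, with no call. Among the Tmed cargo receptors, 9 of 11 probes were above 0, with a median of 0.21, against 0.023 over all probes tested. Tmed2 came nearest. The 15 arrays of Tmed2 at 4 h ran from 0.12 to 0.67, with 2 of the 3 S2KO arrays, at 0.67 and 0.61, at the top. The 14 arrays at 1 h ran from -0.36 to 0.40. Tmed2 averaged 0.33 at 4 h and 0.087 at 1 h, a difference of 0.25 ± 0.073 (adjusted p = 0.0504; 0.24 with the sign of the S3KO array turned, adjusted p = 0.0726), which just missed the call. Its means at 0, 0.3, 1 and 2 h were 0.067, 0.068, 0.087 and 0.089, so the 4 h mean stood apart from the others.

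Tmed9 had differences of 0.34 and 0.16 from 1 to 4 h on its 2 probes, Tmed7 0.26 and 0.023, and Tmed4 0.12 and -0.053. The 3 Tmed5 probes had 0.21, 0.30 and 0.60 and none was called. Tmed10 had -0.038 ± 0.24. Among the COPII coat, Sec23a, an inner-layer subunit, had 0.23 ± 0.080 (adjusted p = 0.132), and Sec13 and Sec31a of the outer cage had 0.26 and 0.17. Sec23b had 0.10, and the cargo adaptors Sec24b and Sec24d had 0.029, 0.069 and 0.031 on 3 probes and 0.19. The other adaptors were not tested, because a group had fewer than 2 arrays. Sec24c, measured on 73 arrays in all, averaged 0.46 at 4 h and -0.068 at 1 h. By line its difference was 0.26 in S2KO, -0.02 in S3KO, 0.67 in U0126, 0.78 in S2WT and 0.95 in S3WT. Sec24a averaged -0.18 at both times. All 4 tested probes of the COPI coat were above 0, with a median of 0.11. Copb1, the beta subunit, had differences of 0.0086 and 0.20 on its 2 probes, and Cope, the epsilon subunit, 0.0061.

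Copg1, the gamma subunit of COPI, had the largest late response of any tested member over the 5 lines, at 0.54 ± 0.24 (adjusted p = 0.391) on probe 6732. Without U0126 0 h replicate 1 it was 0.28. Its other probe 2184, not tested because a group had fewer than 2 arrays, averaged -0.13 late and -0.13 at 0 h. Probe 6732 also had the lowest p among members in the early response, at 0.97 ± 0.32 with an unadjusted p of 0.0038 and an adjusted p of 0.9998 by limma. Neither is a call. The late response of probe 6732 by line ran from -0.47 ± 0.52 in S3KO to 1.59 ± 0.51 in U0126.

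The rule's other call among Sec symbols is Sec14l1, a lipid-binding protein outside the translocation machinery. Its probe 98 read -0.23, 0.071 and 0.084 at 4 h in S2KO, against 0.63, 0.56 and 0.33 at 1 h. In U0126 it read -0.23, -0.15 and -0.22 at 4 h, against -0.41, 0.44 and 0.48 at 1 h. In S2WT it read -0.24, -0.097 and -0.50 at 4 h, against 0.44, 0.39 and 0.45 at 1 h. The S2KO and S2WT groups did not overlap, and in U0126 a single 1 h array lay below the 4 h arrays. In S3WT it read -0.18, -0.76 and -0.053 at 4 h, against 0.31, -0.39 and 0.17 at 1 h. In S3KO it read 0.34, 0.18 and 0.26 at 4 h, against -0.15 and 0.31 at 1 h. The S3WT and S3KO arrays overlapped, and S3KO was the line with a mean difference above 0. The -0.15 comes from the S3KO array of unsettled direction.

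Over the lines Sec14l1 fell by 0.36 ± 0.095 on the log2 scale (adjusted p = 0.0222 by limma), with means of -0.12 at 4 h and 0.24 at 1 h. Its means at 0, 0.3, 1 and 2 h, between 0.14 and 0.24, were all above that at 4 h. The difference by line was -0.53 in S2KO, 0.18 in S3KO, -0.37 in U0126, -0.71 in S2WT and -0.36 in S3WT. The S3KO difference was 0.030 with the sign of that S3KO array turned, and that over the lines -0.39 (adjusted p = 0.0121). Its second probe 2583 gave -0.27 ± 0.13 (adjusted p = 0.316), below 0 in the same 4 lines and 0.20 in S3KO, or -0.090 with the sign turned. The call on probe 98 was lost without S3KO 1 h replicate 3 (-0.31, adjusted p = 0.0716), without S3WT 4 h replicate 2 (-0.32, adjusted p = 0.0545) and with ratios as deposited (-0.31, adjusted p = 0.079).

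**Figure D3:**
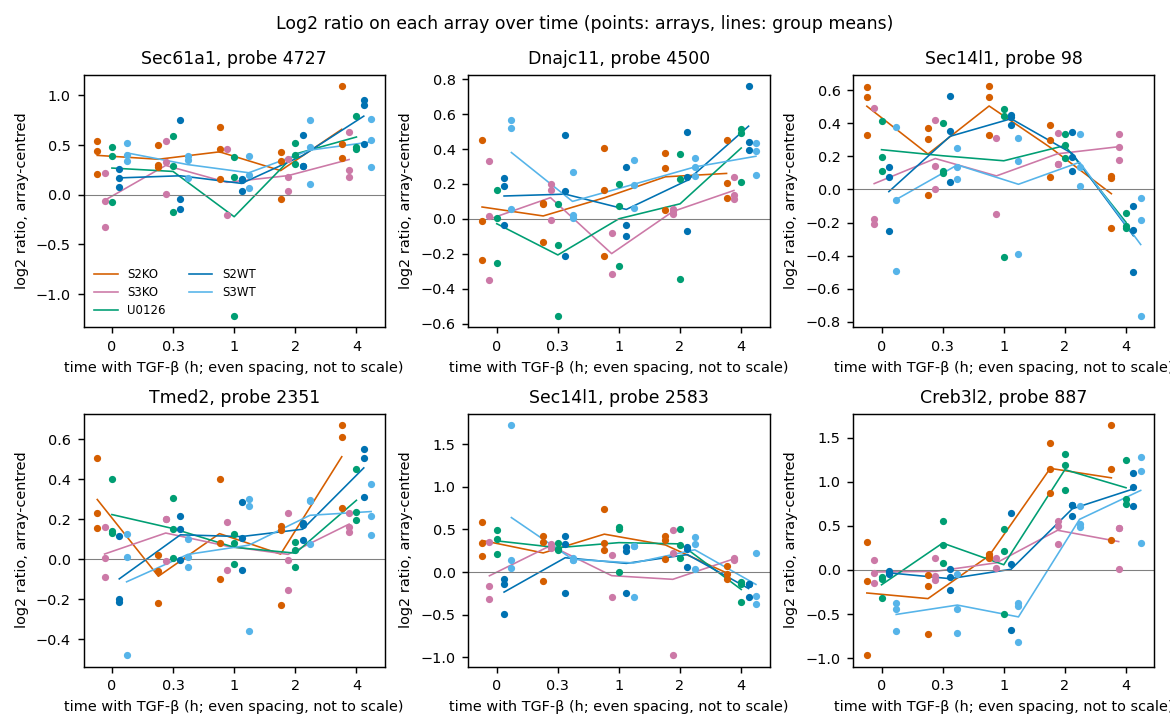
Log2 ratios on each array (points) and group means (lines) by time for Sec61a1, Dnajc11, Sec14l1 (2 probes), Tmed2 and Creb3l2, with a colour for each line. At 4 h the Sec61a1 arrays run from 0.18 to 1.10, and the Sec14l1 probe 98 is at or above 0.18 on the S3KO arrays and at or below 0.084 on those of the other lines.

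The remaining called member of the 1 to 4 h comparison was Dnajc11, a Dnaj protein of mitochondria that is linked to the organisation of their inner membrane. Its 15 arrays at 4 h ran from 0.12 to 0.76 with a median of 0.39. The 14 arrays at 1 h ran from -0.32 to 0.41 with a median of 0.069. All 15 arrays at 4 h lay above the mean at 1 h, and 6 lay above every 1 h array. Dnajc11 rose by 0.31 ± 0.090 (adjusted p = 0.0479 by limma), with means of 0.34 at 4 h and 0.035 at 1 h. The difference was above 0 in each line, from 0.14 ± 0.20 in S2KO to 0.48 ± 0.20 in S2WT. The call is marginal: it was kept without 10 of the 29 arrays and lost without the other 19, with adjusted p-values up to 0.0967, and it was lost with the sign of S3KO 1 h replicate 2 turned (0.29, adjusted p = 0.0788), without the S3KO line (0.30, adjusted p = 0.104) and with the replicate number as a block (0.31, adjusted p = 0.0536).

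Cytosolic chaperones and their partners gave a further call in S2KO. Dnajb1, the Hsp40 partner of Hsp70 and a classic heat shock gene, read 0.67, 0.48 and -0.049 at 1 h, 0.28, 0.66 and 0.30 at 2 h, and 1.14, 0.60 and 0.93 at 4 h in S2KO. The S2KO arrays at 0 h read 0.64, 0.20 and 0.29. The 15 zero-hour arrays of all lines ran from -0.16 to 0.64 with a median of 0.069. The late S2KO arrays overlapped both, and 4 of the 9 lay above every 0 h array.

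Against the pooled 0 h arrays Dnajb1 rose in S2KO by 0.43 ± 0.12 (adjusted p = 0.0336 by limma). Against the 3 S2KO arrays at 0 h the difference was 0.18 ± 0.19 (adjusted p = 0.926). The call was kept in 14 of 24 fits that each left out an array and lost in 10, with adjusted p-values up to 0.117, and lost without the S3KO arrays in the pool (0.39, adjusted p = 0.101). Its own late response was 0.11 in S3KO, 0.11 in U0126, 0.46 in S2WT and 0.28 in S3WT, none called. The means of Dnajb1 over lines were 0.13, 0.13, 0.20, 0.39 and 0.48 at 0, 0.3, 1, 2 and 4 h. Its common late response was 0.23 ± 0.084 (unadjusted p = 0.0094, adjusted p = 0.274).

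Among other Dnaj genes, Dnajb6, which holds back protein aggregates, had a common late response of 0.30 ± 0.14 (adjusted p = 0.414). Dnajc1, a membrane co-chaperone of the endoplasmic reticulum, had changes of 0.37 and -0.36 from 1 to 4 h on its 2 probes, which differed in sign. Of the 16 Dnaj probes tested in that comparison, 9 were above 0. Of the tested Hsp70 relatives, Hspa4, a nucleotide exchange factor, had the largest value, 0.78 ± 0.45 on probe 5444 (adjusted p = 0.465). By line it ran from 0.19 in S3KO to 0.75 in S2KO, with U0126 apart at 2.18. The S3KO value was -0.37 with the sign of S3KO 1 h replicate 2 turned. The other Hspa4 probe 3916 was not tested and averaged 0.17 at 4 h and 0.12 at 1 h. Hspa13 had -0.24 ± 0.34. The small heat shock protein Hspb8, a partner in autophagy of misfolded proteins, had 0.36 ± 0.16 (adjusted p = 0.263), while Hspb2 and Hspb6 had -0.047 and -0.072. Hspb7 had a common late response of 0.25 ± 0.19.

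The CCT ring, which folds actin and tubulin, was close to 0 as a mean over lines. From 1 to 4 h its 5 probes lay between -0.10 and 0.022, with a median of -0.0059. Those means average lines of unlike sign: all 5 were above 0 in S2KO, from 0.12 for Cct5 to 0.65 for Cct2, and all 5 below 0 in S3KO, from -0.87 for Cct5 to -0.13 for Cct4. In S3KO, Cct4 was 0.045 with the sign of S3KO 1 h replicate 2 turned, and the other 4 stayed below 0. These differences between lines were not tested. Cct2 had a common late response of 0.035 ± 0.11 and a 95% interval of -0.18 to 0.25. Cct8 had the lowest unadjusted p among members lower in the common late response, -0.33 ± 0.13 (unadjusted p = 0.0137, adjusted p = 0.335). That value held unlike parts: Cct8 was at -0.86 ± 0.30 in S3KO, -0.77 ± 0.28 in U0126 and -0.36 ± 0.28 in S2WT, against 0.19 in S2KO and 0.15 in S3WT. None of these was called.

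Among prolyl isomerases of other compartments, Ppif and Fkbp3 stood near the threshold from 1 to 4 h, in opposite directions. Ppif, the mitochondrial cyclophilin that regulates the permeability transition pore, had 0.25 ± 0.078 (adjusted p = 0.0758; 0.22 with the sign of S3KO 1 h replicate 2 turned, adjusted p = 0.147), with means over lines of 0.60 at 4 h and 0.35 at 1 h. Ppia, the cytosolic cyclophilin A, had 0.29 ± 0.11 (adjusted p = 0.20). Fkbp3, a nuclear immunophilin, had the lowest difference of any tested member, -0.41 ± 0.12 (adjusted p = 0.0533), averaging -0.38 at 4 h and 0.026 at 1 h. With that sign turned it was called, at -0.44 (adjusted p = 0.0374). Just inside the call threshold stood Dnajc11 at 0.0479, and just outside it Tmed2 at 0.0504 and Fkbp3 at 0.0533.

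Across members, 60 of 88 probes were above 0 from 1 to 4 h, with a median of 0.0705, against 53.9% of all probes and a median of 0.023. At an unadjusted p under 0.05 stood 16 members, 13 higher and 3 lower, which is 18.2% against 13.3% of all probes. Of the 184 probes called over the whole table, 118 were higher and 66 lower; with ratios as deposited the split was 147 and 38, and with the sign of S3KO 1 h replicate 2 turned 88 and 60. The member calls were 2 higher and 1 lower; as deposited they were 4 higher and 0 lower, and with the sign turned 1 higher and 2 lower. Leaving out S3KO 1 h replicate 2 or S2KO 4 h replicate 3 left 1 member call, and leaving out S2KO 4 h replicate 2 gave 6. Genes with several probes had the same sign on all of them for 9 of 12 genes.

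**Figure D4:**
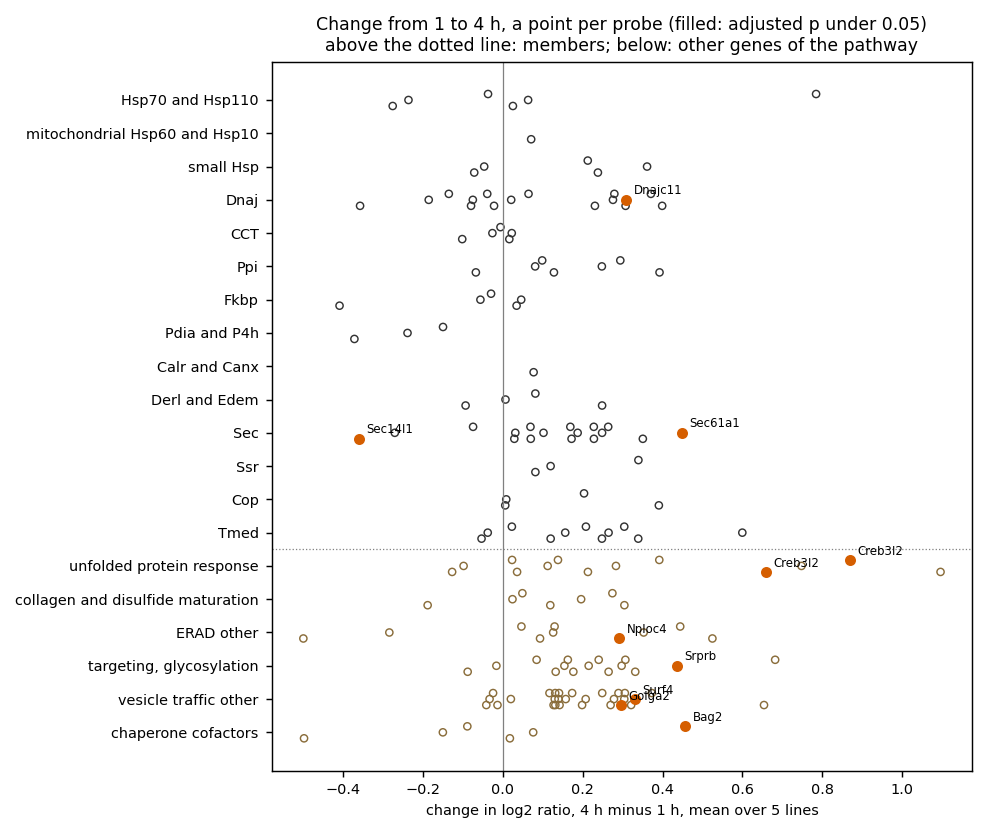
Difference in log2 ratio between 4 h and 1 h, averaged over 5 lines, for each tested probe by family; filled points have an adjusted p under 0.05. Members are above the dotted line and the other genes of the pathway below it; the called members are Sec61a1 and Dnajc11 to the right of 0 and Sec14l1 to the left.

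Genes that serve the same pathway without meeting the rule gave 7 called probes from 1 to 4 h, all higher, of 79 tested, where 2.54% of all probes were called. The list held 152 symbols for the unfolded protein response, collagen maturation, degradation, targeting and glycosylation, vesicle traffic and chaperone cofactors, of which 61 genes had 86 probes. It was chosen with earlier results of these data known, so its shares beside those of all probes are description only. Among the 7 called probes, 887 and 7439 are both of Creb3l2. At an unadjusted p under 0.05 stood 22 of these probes, all higher, against 13.3% of all probes. Of the 79, 65 were above 0, with a median of 0.16, against 53.9% and a median of 0.023 over all probes. With the sign of S3KO 1 h replicate 2 turned 5 were called, and without that array 4.

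Creb3l2, a membrane-bound transcription factor that in its cleaved form is known to switch on Sec23a in cartilage, led them. Its probe 887 read 1.64, 0.35 and 1.15 at 4 h in S2KO, against 0.18, 0.16 and 0.14 at 1 h. In S2WT it read 0.94, 1.10 and 0.73 at 4 h, against -0.69, 0.068 and 0.64 at 1 h. In S3KO it read 0.47, 0.48 and 0.016 at 4 h, against 0.026 and 0.14 at 1 h. The S2KO and S2WT arrays did not overlap, and those of S3KO did.

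From 1 to 4 h Creb3l2 rose by 0.87 ± 0.12 on probe 887 (adjusted p = 1.09e-05) and by 0.66 ± 0.11 on probe 7439 (adjusted p = 0.000218), while its probe 3157 had 1.10 ± 0.37 (adjusted p = 0.105), by limma. The first 2 were also called in the common late response, at 0.73 ± 0.10 (adjusted p = 4.4e-06) and 0.56 ± 0.091 (adjusted p = 0.000115). The late response of probe 887 against its own 0 h arrays was 1.05 ± 0.22 in S2KO, 0.31 ± 0.23 in S3KO, 0.88 ± 0.22 in U0126, 0.57 ± 0.22 in S2WT and 0.82 ± 0.22 in S3WT. Of these S2KO was called (adjusted p = 0.0141), as it was on probe 7439 (0.82, adjusted p = 0.0453). Against the pooled 0 h arrays both probes were called in S2KO, U0126 and S2WT and neither in S3KO or S3WT; on probe 887 the values were 0.99, 0.48, 0.91, 0.74 and 0.51 in S2KO, S3KO, U0126, S2WT and S3WT. With the sign of S3KO 1 h replicate 2 turned, both probes were still called in the common late response (0.72 and 0.53) and from 1 to 4 h (0.87 and 0.75). The differences of S2KO from S2WT (0.47, adjusted p = 0.807) and of S3KO from S3WT (-0.51, adjusted p = 0.672) did not pass. Creb3l2 was not called at 0.3 h, at 0.11 ± 0.14.

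Beside Sec61a1 in protein entry, Srprb, the beta subunit of the signal recognition particle receptor, rose by 0.44 ± 0.086 (adjusted p = 0.0011). Bag2, a cofactor that inhibits the ubiquitin ligase CHIP, rose by 0.46 ± 0.099 (adjusted p = 0.0032). Nploc4, an adaptor of the p97 extraction machine, rose by 0.29 ± 0.074 (adjusted p = 0.0154). Golga2, a matrix protein of the cis-Golgi, rose by 0.30 ± 0.077 (adjusted p = 0.0206), and Surf4, a cargo receptor, by 0.33 ± 0.096 (adjusted p = 0.0466). The calls of Srprb, Bag2 and both Creb3l2 probes were kept whichever of the 29 arrays was left out. That of Surf4 was kept without 12 of them, and those of Nploc4 (0.0752) and Golga2 (0.136) were lost without S3KO 1 h replicate 2. Golga2 (0.22, adjusted p = 0.125) and Surf4 (0.30, adjusted p = 0.0788) were also lost with its sign turned, while Srprb (0.43, adjusted p = 0.00159), Bag2 (0.41, adjusted p = 0.00948) and Nploc4 (0.27, adjusted p = 0.0319) were not. In S2KO the late response further called Faf2, a membrane adaptor of the same degradation machinery, at 0.52 ± 0.12 (adjusted p = 0.036), and, against the pooled arrays, Dad1, a subunit of the oligosaccharyltransferase, at 0.50 ± 0.14 (adjusted p = 0.0344).

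The 5 probes called in S3KO against its own 0 h arrays share a pattern in those 0 h arrays. Dnajc14, a co-chaperone of the endoplasmic reticulum membrane, ran from -0.40 to 0.14 on the 8 late S3KO arrays, against -3.28, -1.87 and -0.11 at 0 h. Hspa12b, a distant Hsp70 relative of endothelial cells, ran from -0.19 to 0.22 late, against -0.50, -3.58 and -0.37 at 0 h. Tmed5 probe 4538 ran from -2.04 to 0.33 late, against 2.02, 3.31 and -0.70 at 0 h. In each of these, 1 or 2 of the 3 arrays at 0 h were far from 0, and Hspa12b was the one whose groups did not overlap.

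Dnajc13, an endosomal protein, ran from -0.64 to 0.16 late, against 2.35 and -0.24 on the 2 measured 0 h arrays. Hspa14, an Hsp70 relative that works at the ribosome, ran from -0.31 to 0.33 late, against 2.45 and -0.27 on the 2 measured 0 h arrays. In both, 1 of the 2 measured 0 h arrays lay far above the late arrays.

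The S3KO late response was 1.76 ± 0.32 for Dnajc14 (adjusted p = 0.00106), 1.47 ± 0.30 for Hspa12b (adjusted p = 0.0052), -2.05 ± 0.47 for Tmed5 (adjusted p = 0.0124), -1.23 ± 0.31 for Dnajc13 (adjusted p = 0.0258) and -1.15 ± 0.29 for Hspa14 (adjusted p = 0.0263), by limma. The late means were 0.011, -0.013, -0.50, -0.17 and -0.057. Against the pooled 0 h arrays the same probes had 0.37, 0.19, -0.28, -0.059 and -0.20, none called. Without S3KO 0 h replicate 2, Hspa12b had 0.42 (adjusted p = 0.656) and Tmed5 -1.17 (adjusted p = 0.475). Without S3KO 0 h replicate 1, Dnajc14 had 1.00 (adjusted p = 0.079) and Tmed5 -1.81 (adjusted p = 0.0674). Without S3KO 1 h replicate 3, Tmed5 had -1.66 (adjusted p = 0.0668) and Dnajc13 -1.16 (adjusted p = 0.0553). Replicates 1 and 2 are the S3KO 0 h arrays whose correlation with the other lines' 0 h ratios was below 0. Tmed5's other probes, 4715 and 8027, had S3KO late responses of 0.12 and 0.13. With only the S3KO arrays in the fit all 5 calls were lost, with adjusted p-values of 0.626 to 0.634. With the sign of S3KO 1 h replicate 2 turned all 5 stood, in a total of 6 member calls.

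Differences between lines in the late response were called for a single member. An unadjusted p under 0.05 was reached by 7.13% of all probes in S2KO minus S2WT and 6.11% in U0126 minus S2WT. In S2KO minus S2WT limma called 0 of 93 members (8 at an unadjusted p under 0.05) and 0.0386% of all probes. In U0126 minus S2WT it called 0 of 94 (7 at an unadjusted p under 0.05) and 0.0252% of all probes. In S3KO minus S3WT it called 1 of 84 and 0.126% of all probes. That member was Tmed5 on probe 4538, at -2.87 ± 0.66 (adjusted p = 0.0478) from late responses of -2.05 in S3KO and 0.82 in S3WT. The call was lost with ratios as deposited (adjusted p = 0.0799) and with only S3KO and S3WT in the fit (adjusted p = 0.356). S3WT read -0.66, -0.36 and -2.45 at 0 h on this probe. The other Tmed5 probes had -0.32 and 0.071. Next in order were Hspa12b (1.70, adjusted p = 0.0579; 1.76 and called at 0.042 with the sign of the S3KO array turned) and Sec14l2 (-2.07, adjusted p = 0.094), and in S2KO minus S2WT Dnaja3, a mitochondrial co-chaperone (-0.63, adjusted p = 0.425).

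The 0 h arrays carry ratios of their own, although both channels held untreated RNA. Of the 100 member probes, 25 had a 0 h mean beyond 0.5 in either direction in S2KO, 15 in S3KO, 21 in U0126, 7 in S2WT and 23 in S3WT. Sec61b, for example, averaged 0.40 on the late arrays and 0.38 on the 0 h arrays over the 5 lines, and Ppia 0.53 and 0.43. Tested against 0 with the 0 h arrays left aside, 46 of 84 members were called in the common late response, 24 higher and 22 lower, which is 54.8% against 50.2% of all probes. Sec61a1, Sec61b, Ppia, Ppib, Cct4 and Derl1 are among them. Against the 0 h arrays none of these was called in the common late response.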

How the data were processed

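The authors deposited 1 table of log2 ratios of both channels of each array, and its values stand as deposited; which dyes, scanner, background correction and normalization they used was not given in the sources used here. Cells above 16.6, 1344 in all and all at 1 ceiling value, were set to missing, besides 41670 blank cells, and each array was centred on its median, since the deposited medians ran from -0.595 to 0.215. Between 7688 and 8713 probes per array were left.

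A mean was fitted for each of 25 groups (5 lines by 5 times), with missing values dropped, and contrasts were tested with limma 3.58.1 in R 4.3.3, moderating the variance over all probes and adjusting by Benjamini-Hochberg over all tested probes. A probe was tested where each group of a contrast had at least 2 arrays. The procedure was checked on simulated data. Probes were named from the platform annotation, and gene IDs matched RefSeq for all 100 member probes.

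The members and gene lists were chosen with earlier results of these data known, and the list of TGF-β-induced genes was drawn up for the direction alone. Named were all called members and called pathway genes, up to 3 members of each family with the lowest p in the common late response, and a list of well-known family members; others are given to complete a family. The alternatives were no centring, scaling of arrays, complete probes, the replicate number as a block, no 0 h arrays, fits on fewer lines, and leaving out each array. Turning the sign of S3KO 1 h replicate 2 was added after seeing the data.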

Additional observations from a re-analysis of the deposited data

Results flagged for a closer look

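The late response of Tmed5 on probe 4538 differed between S3KO and S3WT by the test of the difference itself, at -2.873 ± 0.657 (adjusted p = 0.0478 by limma). The late response was -2.05 in S3KO and 0.82 in S3WT. The other Tmed5 probes differed by -0.32 and 0.071. The call was kept in 5 of 23 fits that each left out an array, with values from -3.995 to -1.989. It was lost with ratios as deposited (adjusted p = 0.0799) and with only S3KO and S3WT in the fit (adjusted p = 0.356). Compared directly between the treated arrays, the lines differed by -0.17 (adjusted p = 0.999).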

How the results depend on the processing

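Member calls by limma changed by setting as follows. Where no share over all probes stands beside a count, the count does not set members against the background. With ratios as deposited, S2WT had 0, the S2WT late response against pooled 0 h arrays 1, S2KO against the pooled arrays 0 and S3KO minus S3WT 0. Over all probes the split in S2WT was then 2 higher and 11 lower, against 11 and 5 with centring, and against the pooled arrays 24 and 271, against 64 and 32. With arrays scaled to a common spread, S2KO against the pooled arrays had 0 and S3KO minus S3WT 2. On probes measured on every array, the change from 1 to 4 h had 7 of 38, S3KO 3, S3KO minus S3WT 2, U0126 minus S2WT 1, and against the pooled arrays S2KO 0, U0126 1 and S2WT 1. With the replicate block, S2KO had 1 and S3KO minus S3WT 2; Dnajc11 was lost (0.31, adjusted p = 0.0536), and the other counts stayed within 1.5 times. In deviations from their group means, arrays of the same line and number correlated at a median of 0.088 over 146 pairs (-0.22 to 0.45, 69 over 0.1), against -0.056 over 292 pairs of unlike number (35 over 0.1), and 57 of 74 arrays were closest on average to those of their own number. Arrays of the same number were thus more alike on average, though not in every pair. The main fit leaves any such pairing out of its p-values. The block fit is the setting that includes it. Tested without the 0 h arrays, the common late response had 46 (54.8% of members tested, 50.2% of all probes), the early response 29 (30.5%, 26.4%), S2KO 32 (32.3%, 26.6%), S3KO 1 (1.12%, 1.82%), U0126 15 (15.3%, 14.3%), S2WT 32 (33.3%, 23.1%), S3WT 14 (14.4%, 8.62%) and S3KO minus S3WT 0 (0% of all probes), and Hspa12b in S3KO turned to -0.013. These values are ratios against 0, which hold the ratio that 0 h arrays also show. With only the lines compared in the fit, S2WT, S3KO and S3KO minus S3WT each had 0. With the S3KO arrays left out of the pooled baseline, S2KO had 0, and without the S3KO line the change from 1 to 4 h had 5. With the sign of S3KO 1 h replicate 2 turned, a setting chosen after seeing the data, S3KO minus S3WT had 2. The cause of these changes was not tested, beyond fewer probes, arrays or lines by construction.

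Leaving out each array in turn gave 0 to 1 member calls in the common late response, in S2KO, U0126, S2WT and S3WT, and in U0126 minus S2WT. It gave 2 to 7 in S3KO, 0 to 6 in S3KO minus S3WT, 1 to 6 from 1 to 4 h, 4 to 9 for the pathway list, and 0 to 2 against the pooled arrays in S2KO, U0126 and S2WT. These ranges stand without shares over all probes, so they show only how far the calls moved. The single call in the common late response came without S3KO 0 h replicate 3. With 3 arrays a group and no intensities, the error of a line's own response had a median SE of 0.35 to 0.37 over all probes.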
